A study of Mus musculus with 148 samples.

Results

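The genes Cxcl2, Cxcl3, Cxcr2, Cxcr4 and Csf3r, which act in neutrophil traffic, were followed across the immune cells of lungs before and after breast cancer metastasis. They make up 5 of the 52634 gene rows of the plate count files and were taken by name. Levels were described across the 5 neutrophil labels of the deposited cell annotation (Neut_Ptgs2, Neut_Lcn2, Neut_Ifit3, Neut_Camp and Neut_PMN-MDSC), the other myeloid labels and the tissues.

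EO771 mammary carcinoma cells carrying tdTomato had been injected into a mammary gland of 8-week-old female C57BL/6 mice with a photoactivatable GFP (PA-GFP) transgene, and the tumor was resected 3 weeks later in the mice followed for metastasis. The PA-GFP background was shared by every group, controls included. Cells came from lungs of tumor-free control mice (Normal, 3 samples), lungs of mice still bearing a primary tumor (Pre-MET, 3), lungs of resected mice without metastasis (Relapse-free, 6), primary tumors (Primary, 4), and, after resection and CT detection of metastasis, from lung tissue with lesions (MET, 13), lesion-free tissue of lungs with metastases (Distal normal tissue, 14), and the photoactivated core (MET Core, 13) and rim (MET Invasive margin, 7) of lesions. Core and margin cells were sorted as CD31- GFP+, with CD45 added in the core of mouse 17, and most other cells as CD31- CD45+. In the Relapse-free mice 6 and 7 some plates held GFP+ cells and others GFP- CD45+ cells of photoactivated lungs, which the study's text speaks of as control lungs and the labels as Relapse-free. The photoactivation target of the margin plates of mouse 17 is labelled non-metastatic, unlike their tissue label. Values without these mice are given for neutrophils of Relapse-free against Normal and of core against margin, and for Cxcl2 in monocytes and macrophages of core against margin. The area label of the margin plates is ADJ in mice 17, 26 and 28 and MET in mice 31, 32, 33 and 36. Both kinds were pooled as margin, and the part of this label in the core and margin values was not tested. Margin sums flagged below as standing apart carry MET in neutrophils and monocytes (mice 33 and 36) and ADJ in macrophages (mouse 17). Tumors and lungs were dissociated with different programs, and all primary tumor cells derive from a single cell line in one mouse strain. Normal mice were females, for which only the general age range of 8 to 10 weeks was given.

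CXCL2 and CXCL3 are CXC chemokines that attract neutrophils through the receptor CXCR2. CXCR2 draws mature neutrophils out of the bone marrow and towards inflamed tissue, whereas CXCR4, the receptor of CXCL12, retains them in the marrow and returns aged cells to it. CSF3R is the receptor of granulocyte colony-stimulating factor (G-CSF, gene Csf3), the main growth factor of the neutrophil lineage.

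Both ligand genes lie on mouse chromosome 5 within one chemokine cluster, at 90903871 to 90905938 (Cxcl2) and 90786103 to 90789600 (Cxcl3) on the plus strand of mm10 by GENCODE. Cxcr2 (74153989 to 74161246, plus strand) and Cxcr4 (128588199 to 128592293, minus strand) lie on chromosome 1, and Csf3r lies on chromosome 4 at 126024550 to 126044440 on the plus strand. The stretches upstream of the ligand genes are shown because the levels of these neighbours were highest in the same cells; they are RefSeq sequence of GRCm38.p6, plus strand, 5′ to 3′. Capitals mark matches to GGNNTTTCC, a form of the NF-κB motif searched on both strands, and to TATAAA, the TATA box, searched on the strand of the gene; these motifs did not overlap one another. The Cxcl2 stretch ends just before the GENCODE start, 28 bases short of the base before the RefSeq start, and the Cxcl3 stretch ends at the base before the RefSeq start.
Cxcl2, chr5:90903799-90903870: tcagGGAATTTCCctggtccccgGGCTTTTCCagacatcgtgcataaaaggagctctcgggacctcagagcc
Cxcl3, chr5:90786001-90786100: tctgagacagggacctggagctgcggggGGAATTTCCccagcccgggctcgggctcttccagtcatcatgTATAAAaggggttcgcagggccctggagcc
The NF-κB-like matches began 96 and 77 bases before the RefSeq start of Cxcl2 and 72 bases before that of Cxcl3. Among 32851 promoters of 250 bases, 4.93% held GGNNTTTCC and 7.59% held TATAAA. Cxcl3 and Cxcr4 held TATAAA 30 bases before the start, and neither motif was matched in the windows of Cxcr2 and Csf3r. A match is a match of letters only and was not tested as a binding site.

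After leaving out 595 wells labelled erythrocyte, tumor or outlier, 23425 immune cells of 27 mice remained, among them 3972 neutrophils, 6308 monocytes and 1791 macrophages. Each captured transcript carries a unique molecular identifier (UMI). The UMIs of all cells of one lineage or label in one mouse and tissue form a sum, kept if it had 10 or more cells, and levels are given as the CPM (UMIs of the gene per 1000000 UMIs) ± SD over such sums. The 42 neutrophil sums held 11 to 492 cells and 7421 to 918670 UMIs, the 62 monocyte sums 13639 to 1107442 UMIs, and the 40 macrophage sums 12757 to 733636 UMIs, so 1 UMI was worth 135 CPM in the shallowest neutrophil sum and 1.09 CPM in the deepest. All 5 neutrophil labels were above the other immune cells in 8 of 8 neutrophil markers, S100a8 included. For Ly6g the gap was narrow in Neut_PMN-MDSC, with 6.67 CPM against 4.65 CPM in the other immune cells. S100a8 was lowest there too, at 15619 CPM, with 61356 CPM in Neut_Ptgs2, the next neutrophil label. Summed over the 8 markers, the level was 25641 and 70336 CPM in the 2 primary tumor sums and 67869 CPM or more in the neutrophils of all other tissues. The mice of one tissue came from 1 sequencing batch (Normal) to 7 batches (Relapse-free), and p-values measure the spread between the sums. Where a mouse gave both tissues of a comparison, the main edgeR and sample permutation tests treated its sums as independent. Only the fits with mouse as a block and the sign-flip tests used the pairs.

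Neutrophil labels held the highest mean of all 5 genes among the immune labels. Neutrophils contributed 69.3% of 24985 Cxcl2 UMIs, 66.4% of 736 Cxcl3 UMIs, 97.5% of 7776 Cxcr2 UMIs and 83.0% of 10144 Csf3r UMIs. Cxcr4 was spread over lineages: of 3551 UMIs, 32.7% came from monocytes, 21.9% from T cells, 16.6% from neutrophils and 10.5% from NK cells. Because the authors drew the labels from the expression of the very same cells, label differences are descriptions and carry no test.

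**Figure D1:**
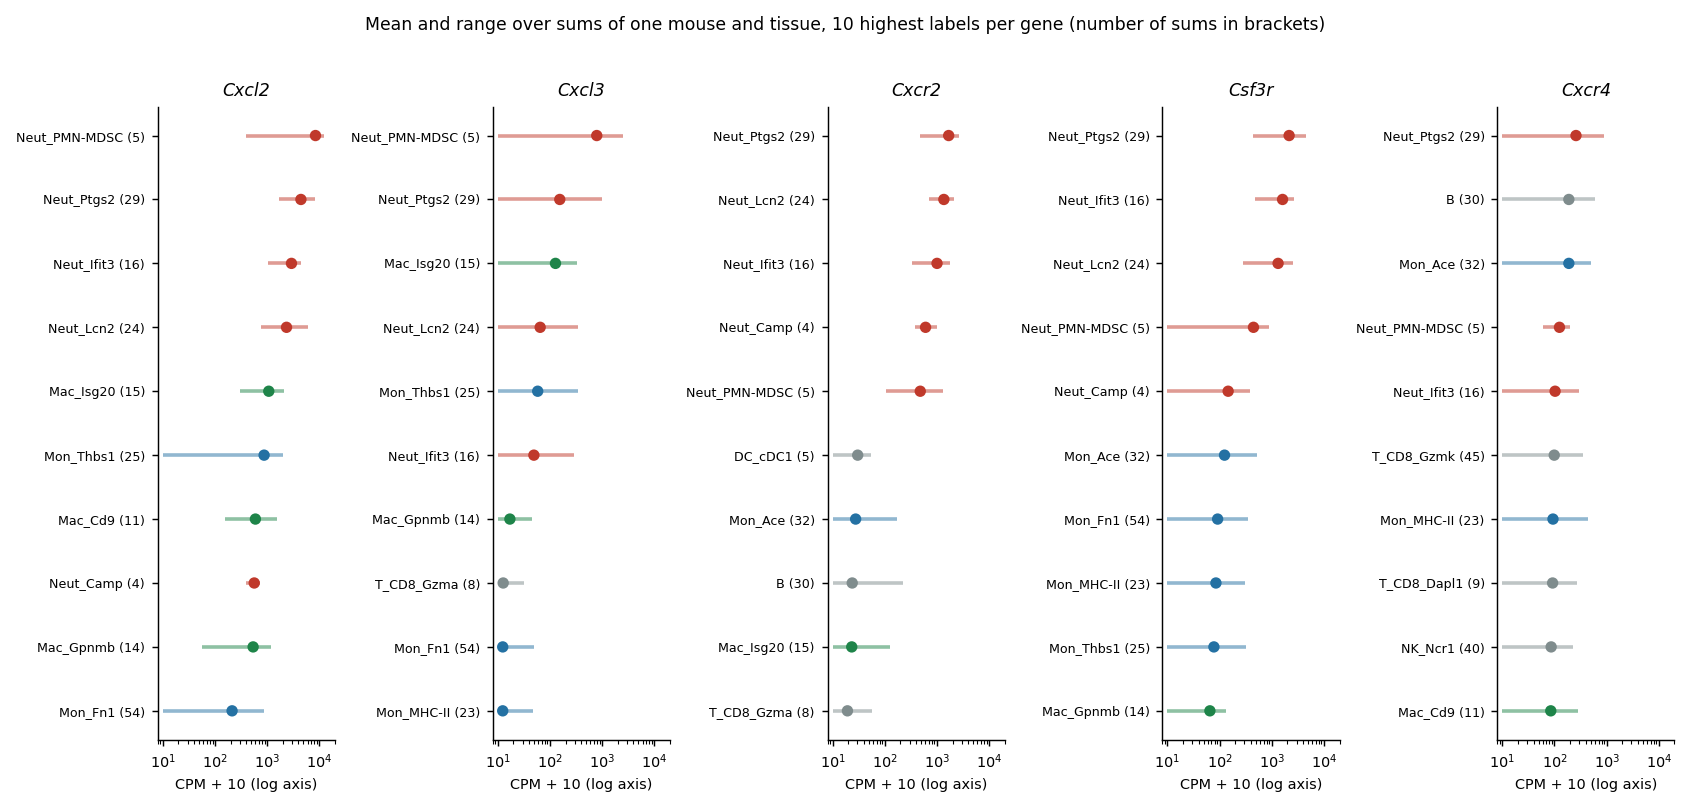
Mean level (point) and range (line) of each gene over sums of one mouse and tissue, in CPM + 10 on a log axis, for the 10 labels with the highest mean among labels with 3 or more sums (number of sums in brackets); neutrophil labels are red, monocytes blue, macrophages green and other labels grey. Neutrophil labels lead in each panel, and for Cxcr2 the means of the 5 neutrophil labels lie above those of all other labels, although the range of Neut_PMN-MDSC overlaps those of B, Mon_Ace and Mac_Isg20.

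For the ligand Cxcl2, Neut_PMN-MDSC had the highest level at 8481 ± 4743 CPM (SD, n = 5), followed by Neut_Ptgs2 at 4451 ± 1828 (n = 29), Neut_Ifit3 at 2928 ± 1162 (n = 16) and Neut_Lcn2 at 2352 ± 1399 (n = 24). The next labels were Mac_Isg20 (1068 ± 531, n = 15), Mon_Thbs1 (867 ± 593, n = 25) and Mac_Cd9 (588 ± 524), ahead of Neut_Camp (558 ± 164, n = 4), the label whose leading gene Camp encodes a granule protein of immature granulocytes. Each of these neighbours in the order differed by less than the larger of their SDs. The 5 Neut_PMN-MDSC sums were 8520 CPM in the core of mouse 17, 10189 in the core of mouse 37, 10888 in MET of mouse 31, 12429 in MET of mouse 32, and 376 CPM, from 4 UMIs, in the relapse-free lung of mouse 7. The 4 sums from lesions were thus above every other label mean, and the sum from a lung without metastasis, one of those with photoactivated plates, was below the mean of Neut_Camp.

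Cxcl3 followed a like order with far fewer UMIs. Its mean was 785 ± 983 CPM in Neut_PMN-MDSC (0, 450, 462, 508 and 2504), 145 ± 266 in Neut_Ptgs2 with 12 of 29 sums at 0, 118 ± 109 in Mac_Isg20, 55.3 in Neut_Lcn2, 48.5 in Mon_Thbs1 and 39.5 in Neut_Ifit3. All 4 Neut_Camp sums were at 0.

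The receptor Cxcr2 was almost confined to neutrophils. Its level was 1677 ± 502 CPM in Neut_Ptgs2, 1354 ± 430 in Neut_Lcn2, 999 ± 476 in Neut_Ifit3, 598 ± 291 in Neut_Camp and 471 ± 481 in Neut_PMN-MDSC, and the next label, DC_cDC1, was at 20.3 CPM. Single sums of other labels reached the lowest Neut_PMN-MDSC sum of 94.1 CPM, up to 216 CPM in B cells, where 24 of 30 sums were at 0. The G-CSF receptor gene Csf3r ran from 2149 ± 1015 CPM in Neut_Ptgs2 through 1605 ± 722 in Neut_Ifit3 and 1316 ± 579 in Neut_Lcn2 to 437 ± 346 in Neut_PMN-MDSC, a last step of 879 CPM that exceeded the larger SD. Csf3r was 136 CPM in Neut_Camp and 114 in Mon_Ace. Over all tissues Neut_PMN-MDSC was first of the labels for both ligand genes and last or next to last of the neutrophil labels for Cxcr2 and Csf3r. Its sums came mostly from lesions. Within the core, Cxcl2 was 6033 to 8408 CPM in Neut_Ptgs2 (mean 7290, n = 3), below the 8520 and 10189 CPM of Neut_PMN-MDSC (mean 9354, n = 2). Cxcl3 in the core was 144 to 826 CPM in Neut_Ptgs2 and 450 and 462 CPM in Neut_PMN-MDSC, with overlap.

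Cxcr4 was highest in Neut_Ptgs2 at 249 ± 203 CPM, next to B cells (179 ± 143), Mon_Ace (179 ± 128) and Neut_PMN-MDSC (115 ± 52.8), here next to the highest of the neutrophil labels. It was 92.9 CPM in Neut_Ifit3, 49.4 in Neut_Lcn2 and 21.0 in Neut_Camp. Neighbouring labels differed by less than the larger SD.

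When every cell was thinned to 500 UMIs, Cxcl2 was seen in 54.0 ± 15.7% of the neutrophils of a sample (n = 42), Csf3r in 42.1%, Cxcr2 in 37.8%, Cxcr4 in 5.53% and Cxcl3 in 3.19%, compared with 62.6%, 53.3%, 49.6%, 8.59% and 4.73% before thinning. In T cells of the same samples, which should lack most of these transcripts and give the level of free RNA, the thinned percentages were 1.32% for Cxcl2, 0.309% for Csf3r, 0.430% for Cxcr2 and 0.0441% for Cxcl3. The median over samples of the median UMIs per cell was 790.5 in neutrophils and 952.75 in T cells. Cxcr4 was seen in 3.15% of T cells and 7.15% of B cells, which express it. Macrophages showed Cxcl2 in 19.6% and monocytes in 8.57% of cells.

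Across 26 labels with 3 or more sums and 9040 genes, the genes whose mean log2(CPM + 1) followed Cxcl2 most closely were C5ar1 (Pearson r = 0.954), Clec4d (0.953) and Clec4e (0.941). Egln3 (0.918), Ankrd66 (0.912) and Rhov (0.909) were nearest to Cxcl3, Gm5483 (0.975), Asprv1 (0.966) and Mrgpra2b (0.963) to Cxcr2, and Trem1 (0.945), Ets2 (0.936) and Fam114a1 (0.931) to Csf3r. For Cxcr4 the closest were Smurf2 (0.731), Fgd3 (0.714) and Ptbp3 (0.699). Between the genes themselves r was 0.856 for Cxcl2 and Csf3r, 0.799 for Cxcr2 and Csf3r, 0.777 for Cxcl2 and Cxcl3, and 0.108 to 0.333 for Cxcr4 with the other 4. The labels share libraries and differ in depth, and these correlations are descriptions.

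The tissue comparisons ask whether neutrophils in or near metastases carry other levels of these genes than neutrophils elsewhere in the lung. Differences between tissues are log2 fold changes from the edgeR quasi-likelihood test on the summed counts, with p-values adjusted by the Benjamini-Hochberg method over all genes tested in that comparison and a call below 0.05. Their SE was derived from the F statistic of that test. Intervals are normal 95% limits from this SE, and are narrower than the test itself allows where groups are small. In bulk sums of this kind, fewer transcripts per cell and fewer cells of a kind within the lineage cannot be told apart. Genes below the count filter were compared by permutation of samples on log2(CPM + 10), a family of 33 tests chosen after seeing the data. Pre-MET and Relapse-free share the Normal samples, and Primary and margin share the core samples.

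**Figure D2:**
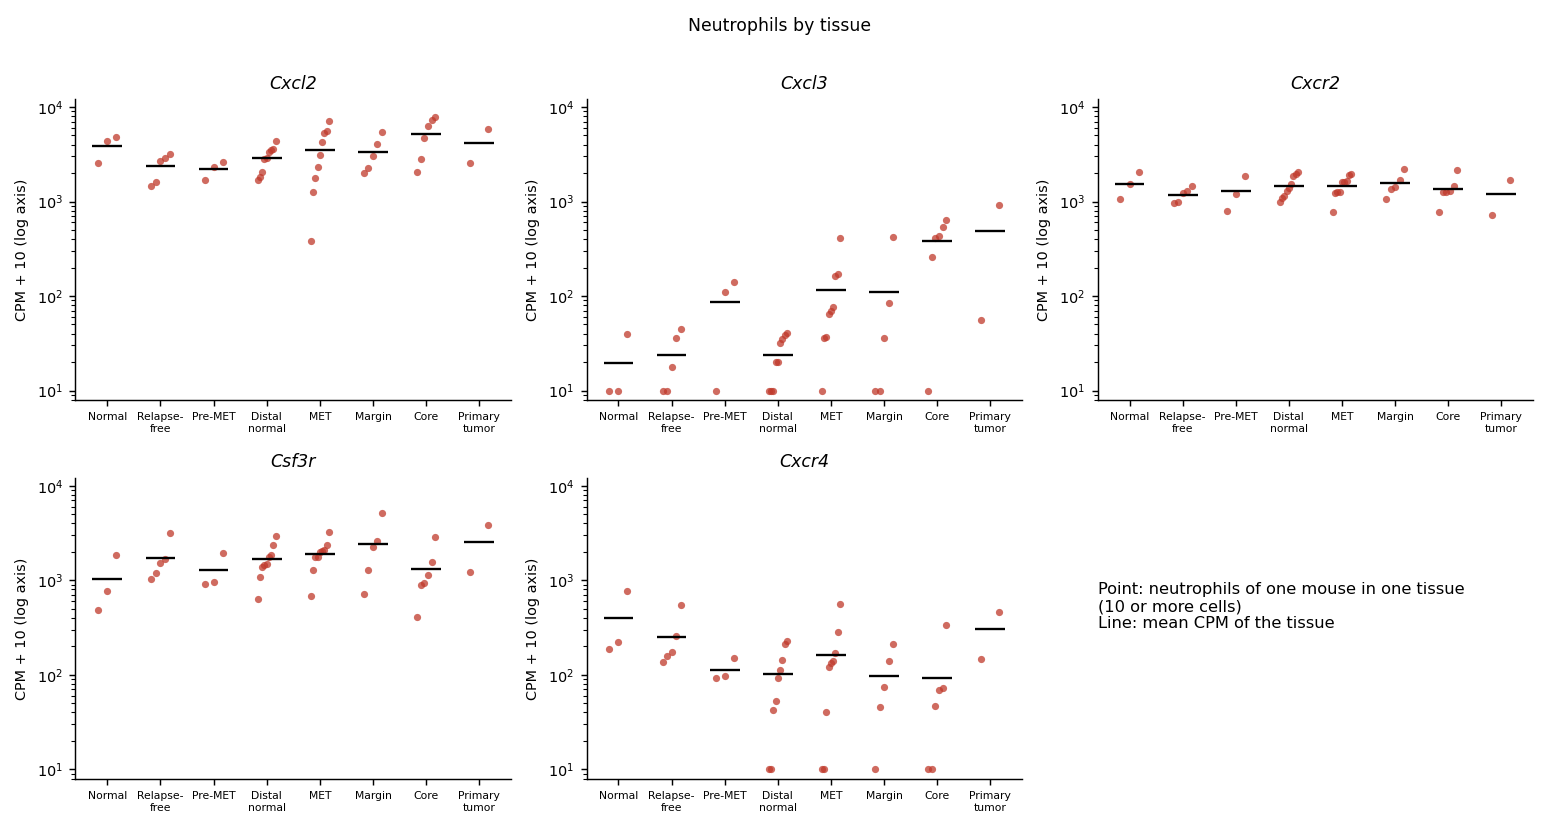
Level of each gene in neutrophils by tissue, in CPM + 10 on a log axis; a point is one mouse and a line the mean of the tissue. Cxcr2 stays between 710 and 2215 CPM in all 42 sums, whereas Cxcl3 lies at 30.5 CPM or less in distal normal tissue and at 250 CPM or more in 5 of the 6 core sums.

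Cxcl2 in neutrophils had a median of 2899 CPM in distal normal tissue (1671 to 4331, n = 9) and of 3112 in MET (372 to 7177, n = 9). The lowest MET value rested on 3 UMIs in mouse 25, and the highest came from mouse 32. The groups overlapped widely, and the log2 fold change was 0.29 (SE 0.32, 95% interval -0.35 to 0.93, edgeR adjusted p = 0.999). With batch as a covariate it was -0.078, and within the 2 batches that held both tissues the differences in log2(CPM + 10) were -1.11 and 0.63. None of the 3 genes tested here was called, and neither was any of the 715 genes tested (0%), although 26 had an unadjusted p below 0.05. Cxcr2 differed by -0.03 (interval -0.43 to 0.38) and Csf3r by 0.19 (interval -0.29 to 0.67). Of the 6 mice with neutrophil sums from both tissues, Cxcl2 was higher in MET in 4.

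Cxcl3 was 0, 0, 0, 10.2, 10.2, 21.8, 25.5, 28.3 and 30.5 CPM in neutrophils of distal normal tissue. In MET it was 0, 26.3, 26.7, 54.6, 60.1, 67.0, 152, 161 and 405 CPM. The highest 6 MET values were above every distal value, and the MET value of 0 was that of mouse 25, with 8069 UMIs in all. The mean log2(CPM + 10) differed by 1.80 (exact permutation p = 0.00876, adjusted p over the 33 tests = 0.0964), which does not pass after adjustment. Within mice it was higher in MET in 6 of 6, by 0.86, 0.93, 0.98, 1.67, 4.02 and 4.10 on the log2 scale, and the exact sign-flip permutation test gave p = 0.03125, the smallest that 6 mice allow. In 3 of these mice both tissues held the same number of Cxcl3 UMIs (2 in mouse 26, 1 in mouse 30 and 2 in mouse 36), so the sign there comes from the totals alone. The 2 largest differences (mice 28 and 31) rest on distal sums without a Cxcl3 UMI, and in mouse 31 that sum held 7421 UMIs, so that 1 UMI would be worth 135 CPM against 152 CPM in MET. In mice 30 and 31 the 2 tissues were also sequenced mainly in different batches. Cxcl3 was higher in MET within both sequencing batches that held both tissues (0.86 and 2.24). The group values rest on 120 UMIs in MET, 56 of them from mouse 32, which gave no distal sum, and on 49 in distal normal tissue, so single sums carry wide counting error. Without the count filter edgeR gave 2.31 with an adjusted p of 0.156.

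Within Neut_Ptgs2 cells alone, Cxcl3 was at 0 in 4 of 6 distal sums, with a highest value of 30.7 CPM, and ran from 29.6 to 327 CPM (median 116) in 6 MET sums. It was 999 CPM in the 1 primary tumor sum, 144 to 826 CPM in 3 core sums, and 53.5 and 450 CPM in 2 margin sums. The primary tumor sum came from a tumor with 13 neutrophils and 14 Cxcl3 UMIs in all. Cxcl3 was 0 to 47.1 CPM in 5 Relapse-free sums, of which 2 were at 0, and 0 in all 3 Normal and all 3 Pre-MET sums. Over all neutrophils 1 UMI was worth 29.2 to 96.2 CPM in Normal and 14.2 to 40.8 CPM in Pre-MET, and more within Neut_Ptgs2. These zeros thus do not exclude the low MET values. In Neut_Lcn2, Cxcl3 had overlapping ranges in MET (mean 42.6 CPM, n = 7) and distal normal tissue (21.2 CPM, n = 6), and in Neut_Ifit3 the order of the means was the opposite, with 11.97 CPM in MET (4 of 6 sums at 0) and 32.9 CPM in distal normal tissue (1 of 3 at 0). Over all Pre-MET neutrophils Cxcl3 was 0, 99.2 and 130 CPM (16 UMIs), against 0, 0 and 29.2 CPM (1 UMI) in Normal (exact permutation p = 0.4), and it reached 345 CPM in 1 of 2 Pre-MET sums of Neut_Lcn2 and 285 CPM in 1 of 2 of Neut_Ifit3, the others at 0. Relapse-free neutrophils held 0, 0, 7.61, 26.2 and 34.5 CPM (exact permutation p = 0.679 against Normal, 0.7 without mice 6 and 7). For the genes that passed the filter in Neut_Ptgs2, the change from distal normal tissue to MET was 0.45 for Cxcl2, 0.41 for Cxcr2 and 0.04 for Csf3r (edgeR adjusted p = 0.982 each), with 0 of 3 genes and 0 of 485 (0%) called and 20 below an unadjusted 0.05. Csf3r took a negative sign there under 7 other settings, from -0.02 to -0.72. In Neut_Lcn2 the changes were 0.44 for Cxcl2, 0.37 for Csf3r and -0.22 for Cxcr2, with 0 of 3 genes and 0 of 371 (0%) called by edgeR and 5 below an unadjusted 0.05. In Neut_Ifit3 they were 0.41 for Csf3r, -0.21 for Cxcl2 and -0.08 for Cxcr2, with 0 of 3 genes and 0 of 275 (0%) called by edgeR and 7 below an unadjusted 0.05.

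In the core of lesions, neutrophil Cxcl2 was 2048, 2787, 4708, 6341, 7264 and 7812 CPM, and in the invasive margin it was 1999, 2244, 3043, 4039 and 5372 CPM. The 3 highest core values exceeded all margin values. The log2 fold change was 0.59 (interval -0.09 to 1.27, edgeR adjusted p = 0.567). All 4 mice with both regions were higher in the core, by 0.035, 0.24, 0.63 and 1.69 on log2(CPM + 10), a mean of 0.65. The smallest difference, in mouse 26, was that between 2048 and 1999 CPM. The largest, in mouse 28, came from sums of 19 core cells and 15 margin cells. Csf3r was at 396 to 2866 CPM (median 1038) in the core and 714 to 5128 CPM (median 2244) in the margin, with overlap, a change of -0.82 (interval -1.76 to 0.12, adjusted p = 0.562), and Cxcr2 changed by -0.19 (interval -0.78 to 0.41). None of the 3 genes was called, against 1 of 216 genes (0.463%). The Csf3r change was 0.36 when only cells of 1000 or more UMIs were summed. Without mouse 17 in either region the changes were 0.58 for Cxcl2, -0.89 for Csf3r and -0.20 for Cxcr2, and edgeR called 3 genes, none of them among these.

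Cxcl3 was 250, 404, 427, 528 and 634 CPM in 5 core sums and 0 in the core of mouse 26, and it was 0, 0, 26.0, 73.7 and 407 CPM in the margin. The core values lay above 4 of 5 margin values with the exception of mouse 26, and the high margin value was that of mouse 36, from 10 UMIs. The difference in mean log2(CPM + 10) was 2.49 (exact permutation p = 0.108; without mouse 17, 2.57 and p = 0.159), and 3 of 4 mice with both regions were higher in the core (exact sign-flip permutation p = 0.375, with the smallest possible p above 0.05). After thinning, 10.8% of core neutrophils held a Cxcl3 UMI, compared with 1.78% in the margin, 2.79% in MET and 0.715% in distal normal tissue. Neut_PMN-MDSC made up 19.99% of core neutrophils, 3.36% of MET, 0.466% of margin and 0.111% of distal neutrophils, and its part in these levels was not tested beyond the values within Neut_Ptgs2. The summed level of 10 dissociation and stress genes was lower in core neutrophils (mean 18207 CPM) than in margin (26677), MET (25603) and distal neutrophils (22282), and its part was not tested.

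Before metastasis was visible, Cxcl2 in neutrophils was 1672, 2283 and 2636 CPM in Pre-MET lungs and 2515, 4343 and 4812 CPM in Normal lungs. Only the highest Pre-MET value reached the lowest Normal value. The log2 fold change was -0.83 (interval -1.42 to -0.23), with an edgeR adjusted p of 0.387. Csf3r changed by 0.16 and Cxcr2 by -0.23, and both changed sign under other settings. None of the 3 genes tested was called, against 4 of 377 genes (1.06%). Cxcr4, below the filter, was 81.5, 86.9 and 142 CPM in Pre-MET and 175, 211 and 770 CPM in Normal neutrophils, without overlap (difference -1.52 on log2(CPM + 10), exact permutation p = 0.1, the smallest that 3 against 3 allows), from 18 and 19 UMIs. Neut_Ptgs2, the label highest in Cxcr4, made up 80.2% of Normal and 33.0% of Pre-MET neutrophils. Within Neut_Ptgs2 the ranges of Cxcr4 overlapped, with 238, 258 and 873 CPM in Normal and 0, 153 and 328 CPM in Pre-MET. Neutrophil Cxcr4 overlapped in the other comparisons. It differed by 0.43 between MET (0 to 546 CPM) and distal normal tissue (0 to 220 CPM; exact permutation p = 0.627) and was lower in MET in 4 of 6 mice, it differed by -0.50 between core (0 to 330 CPM) and margin (0 to 203 CPM; exact permutation p = 0.660; without mouse 17, -0.63 and p = 0.667), and by 2.54 between the 2 primary tumor sums (136 and 452 CPM) and the core (exact permutation p = 0.107). All Normal samples were sequenced in one batch that held no other group, so batch and group cannot be told apart.

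In Relapse-free lungs the neutrophil values of Cxcl2 were 1452, 1586, 2661, 2911 and 3170 CPM, a change of -0.52 from Normal (edgeR adjusted p = 0.813). Csf3r changed by 0.83 (adjusted p = 0.684), Cxcr2 by -0.13 and Cxcr4 by -0.19, the last 2 with the opposite sign when no count filter was applied. Without mice 6 and 7 the changes were -0.76, 1.04, 0.017 and -0.067 in the same order, and edgeR called 0 genes, with 86 at an unadjusted p below 0.05. None of the 4 genes was called, against 1 of 1733 genes (0.0577%). Primary tumors gave only 2 neutrophil sums of 13 cells each, at 2519 and 5858 CPM for Cxcl2, 45.4 and 904 for Cxcl3, and 1226 and 3811 for Csf3r. Compared with the core, Csf3r differed by 0.92, Cxcl2 by -0.27, Cxcl3 by 0.27 and Cxcr2 by -0.18 (edgeR adjusted p from 0.510 to 0.916). Each sign changed when 1 of the 2 tumors was left out, where the spread comes from the core sums alone. None of these 4 genes and none of 346 genes (0%) was called, 50 had an unadjusted p below 0.05, and DESeq2 called 12.

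Other cells of the lung also held ligand transcripts. In monocytes Cxcl2 had a median of 143 CPM in distal normal tissue (42.9 to 611, n = 14) and 356 CPM in MET (23.2 to 1633, n = 13). The ranges overlapped, with mouse 33 highest in both tissues. The log2 fold change was 1.36 (SE 0.40, interval 0.57 to 2.15), and the adjusted p of edgeR was 0.0785, so that neither Cxcl2 nor Csf3r (0.06) was called, against 31 of 2098 genes (1.48%). All 13 MET mice also gave distal normal tissue, and with mouse as a block the change was 1.27 with an adjusted p of 0.000901, and 79 genes in all were called. In some of these mice the tissues also differed in batch, since 1 batch held 5 MET and 7 distal sums and another 4 and 2. Cxcl2 was higher in MET in 11 of 13 mice and within 3 of 3 batches, and with batch as a covariate the change was 1.43 (edgeR adjusted p = 0.00615). Mon_Thbs1, the monocyte label highest in Cxcl2, made up 5.28% of monocytes in distal normal tissue and 25.5% in MET. Within Mon_Fn1, the main other label, Cxcl2 was 166 ± 136 CPM in distal normal tissue and 216 ± 171 in MET (n = 13 each). The change was 0.38 (interval -0.39 to 1.15, edgeR adjusted p = 0.9995), with 0 of 1292 genes (0%) called and 17 below an unadjusted 0.05. Within Mon_Ace the means were 73.4 CPM in distal normal tissue (n = 8) and 239 CPM in MET (n = 7), with overlapping ranges. Within Mon_MHC-II they were 313 (n = 2) and 551 CPM (n = 4), also with overlap. Mon_Thbs1 was at 1300 CPM in 1 distal sum and at a mean of 908 CPM in MET (n = 10). The changes within these 3 labels were not tested. Neutrophil markers in the monocyte sums added up to a mean of 1197 CPM in MET (269 to 5435) and 1847 CPM in distal normal tissue (275 to 4940).

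**Figure D3:**
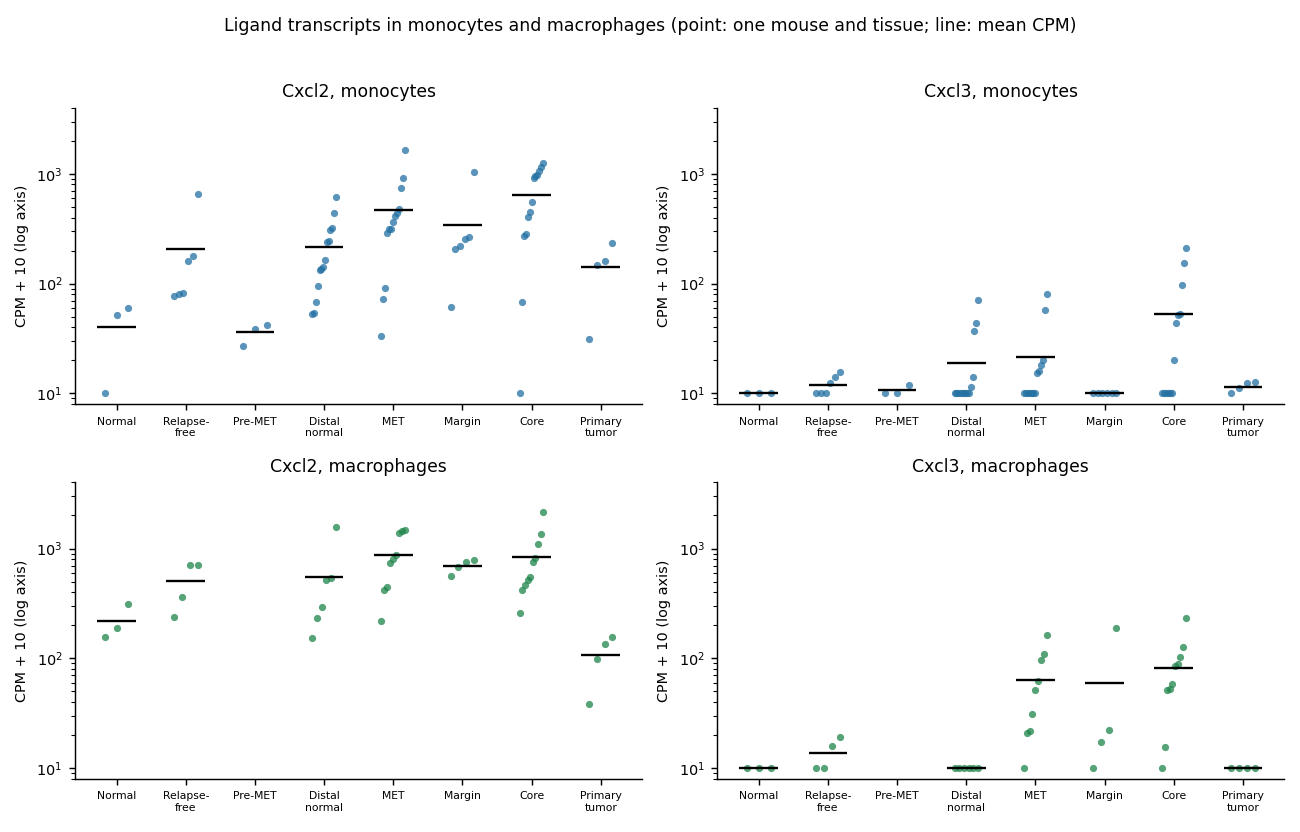
Cxcl2 and Cxcl3 in monocytes and macrophages by tissue, in CPM + 10 on a log axis; a point is one mouse and a line the mean of the tissue, and Pre-MET lungs gave no macrophage sum. Macrophage Cxcl2 in the 4 primary tumors lies below all 10 core values, and macrophage Cxcl3 lies at 0 in Normal, distal normal and primary tumor sums.

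Core monocytes had Cxcl2 at a median of 547 CPM (0 to 1240, n = 13) and margin monocytes at 51.6, 196, 210, 245, 254 and 1026 CPM, the last from mouse 33. The change was 1.19 (interval 0.11 to 2.26, edgeR adjusted p = 0.587), with 0 of 1025 genes (0%) called and 84 below an unadjusted 0.05. Without mouse 17 it was 1.16 (edgeR adjusted p = 0.808). With mouse as a block it was 1.51 with an adjusted p of 0.0399, and 58 genes were called. All 5 mice with both regions were higher in the core, and the mean was higher in the core within 3 of 4 batches and lower within one (-0.29). Within Mon_Fn1 the 7 core sums ran from 226 to 868 CPM and the 5 margin sums from 67.6 to 222 CPM, which was not tested. Other labels differed in their order. Mon_Ace was at 0 and 124 CPM in the core and 220 and 276 CPM in the margin. Mon_Thbs1 had a mean of 1030 CPM in the core (n = 8) and 1127 CPM in 1 margin sum. Mon_MHC-II was at 65.1 and 433 CPM in the core, a mean of 249 CPM, and at 89.1 CPM in 1 margin sum. Cxcl3 was at 0 in all 6 margin sums, where a count of 0 allows up to 3.16 CPM over the group, and at 0 to 200 CPM in the core (57 UMIs, exact permutation p = 0.0617). Over the 5 mice with both regions the exact sign-flip permutation p was 0.125, where the smallest possible is 0.0625.

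The change between MET and distal normal tissue was compared between lineages in the 6 mice that had both. Cxcl2 changed by 0.12 in neutrophils and 1.13 in monocytes, a difference of -1.01 on log2(CPM + 10) (exact sign-flip permutation p = 0.0625, adjusted over 10 tests 0.3125). Cxcl3 changed by 2.09 in neutrophils and -0.02 in monocytes (exact sign-flip permutation p = 0.0625). Neither passed, and 6 mice allow no p below 0.03125.

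**Figure D4:**
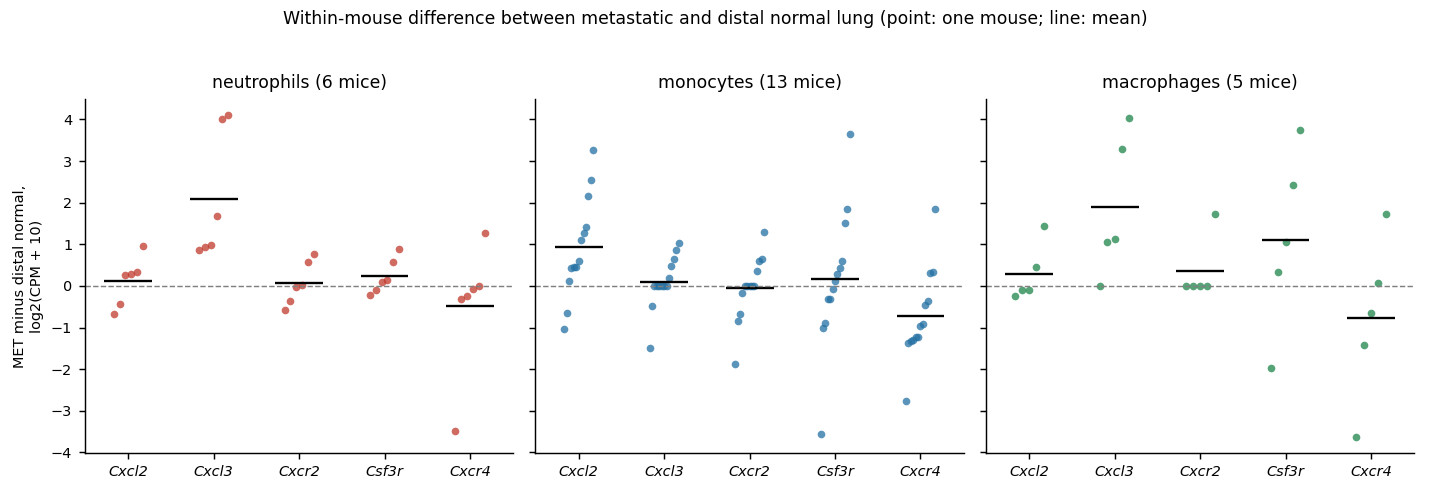
Within-mouse difference of MET minus distal normal tissue in log2(CPM + 10) for each gene; a point is one mouse, a line the mean, and the dashed line no difference. Neutrophil Cxcl3 lies above 0 in 6 of 6 mice, of which 3 had equal UMI counts in both tissues and 2 had distal sums without a Cxcl3 UMI, and monocyte Cxcl2 in 11 of 13.

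Macrophages held Cxcl2 at a mean of 543 CPM in distal normal tissue (143, 224, 283, 510, 529 and, in mouse 33, 1568) and 855 ± 472 CPM in MET (208 to 1466, n = 9). The change of 0.94 (interval -0.02 to 1.91, edgeR adjusted p = 0.260) was no call, in a comparison in which 123 of 1289 genes (9.54%) were called, and 2 of 5 mice with both were higher in MET. Core and margin macrophages differed by 0.19 in Cxcl2 (edgeR adjusted p = 0.940; 0.20 and 0.914 without mouse 17), with 0 of 1743 genes (0%) called and 178 below an unadjusted 0.05. Macrophage Cxcl3 was at 0 in all 6 distal sums, where the 134776 UMIs of the group allow up to 22.3 CPM, and ran from 0 to 154 CPM in MET (61 UMIs in 9 sums, 8 of them above 0). The difference on log2(CPM + 10) was 2.18 (exact permutation p = 0.0042, adjusted over 33 tests 0.0964). Over the 5 mice with both tissues the exact sign-flip permutation p was 0.125, where the smallest possible is 0.0625. Mac_Isg20, the macrophage label with the most Cxcl3, made up 7.19% of distal and 39.2% of MET macrophages.

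Primary tumor macrophages were lower in Cxcl2 than core macrophages. The 4 tumors had 27.9, 88.6, 125 and 145 CPM, and the 10 core sums ranged from 248 to 2134 CPM (median 642), without overlap. Cxcl2 fell by 3.14 on the log2 scale (SE 0.57, interval -4.26 to -2.03, edgeR adjusted p = 0.00161), where 98 of 2162 genes (4.53%) were called. Leaving out any 1 of the 4 tumors kept the call (adjusted p from 0.00442 to 0.0135). With batch as a covariate the value was -3.61 with an adjusted p of 0.195, and only 2 genes in all were called. Within the batch that held both, 1 tumor sum and 2 core sums differed by -3.24 in log2(CPM + 10). The other tumors were sequenced in a batch without core samples, so batch and tissue cannot be told apart for them. Mac_Cd81, with low Cxcl2 in both primary tumor (67.8 CPM, n = 4) and core (90.6 CPM, n = 3) but not in MET (360 and 765 CPM), made up 80.9% of primary tumor and 19.7% of core macrophages, whereas Mac_Isg20 made up 14.6% and 56.4%. Primary tumor and lung differed also in organ and dissociation program. Core cells were photoactivated and mostly sorted on GFP without CD45, tumor cells on CD45, and the core was taken after resection. None of these can be told apart from the tissue difference. Cxcl3 was listed at 0 in all 4 tumors, an upper limit of 1.52 CPM over the group, against 0 to 222 CPM in the core (exact permutation p = 0.00599, adjusted over 33 tests 0.0964).

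Monocytes showed a like difference in Cxcl2 that did not pass. Primary tumor monocytes had 21.0, 138, 150 and 223 CPM, and 11 of 13 core sums exceeded them all. The change was -2.24 (interval -3.43 to -1.06, edgeR adjusted p = 0.0545), in a comparison with 27 of 1835 genes (1.47%) called. DESeq2 and 4 other settings put it past the threshold, and batch as a covariate gave -1.69 with an adjusted p of 0.805.

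Cxcr4 was lower in Pre-MET than in Normal monocytes. It was 56.7, 95.2 and 126 CPM in Pre-MET and 140, 256 and 305 CPM in Normal monocytes, without overlap, from 122 UMIs in each group. The log2 fold change was -1.36 (SE 0.37, interval -2.09 to -0.62, edgeR adjusted p = 0.0495), the one call among the 3 genes tested there, against 214 of 4953 genes (4.32%). The call was lost without Pre-MET mouse 8 (adjusted p = 0.171), 9 (0.0630) or 10 (0.211) and without Normal mouse 1 (0.225) or 3 (0.140), and it held without Normal mouse 2 (0.0407). Mon_Ace, the monocyte label highest in Cxcr4, made up 59.0% of Normal and 22.6% of Pre-MET monocytes. Within Mon_Ace the means were 340 and 173 CPM, within Mon_Fn1 125 and 72.1 CPM, and within Mon_MHC-II 166 and 172 CPM, each with overlapping ranges. The same limit of batch applies as for neutrophils. Between MET and distal normal tissue, monocyte Cxcr4 was lower in MET in 10 of 13 mice (difference of means -0.66, permutation p = 0.0781, which is 0.238 adjusted over 33 tests). The sign-flip permutation p over mice was 0.0354, not adjusted.

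**Figure D5:**
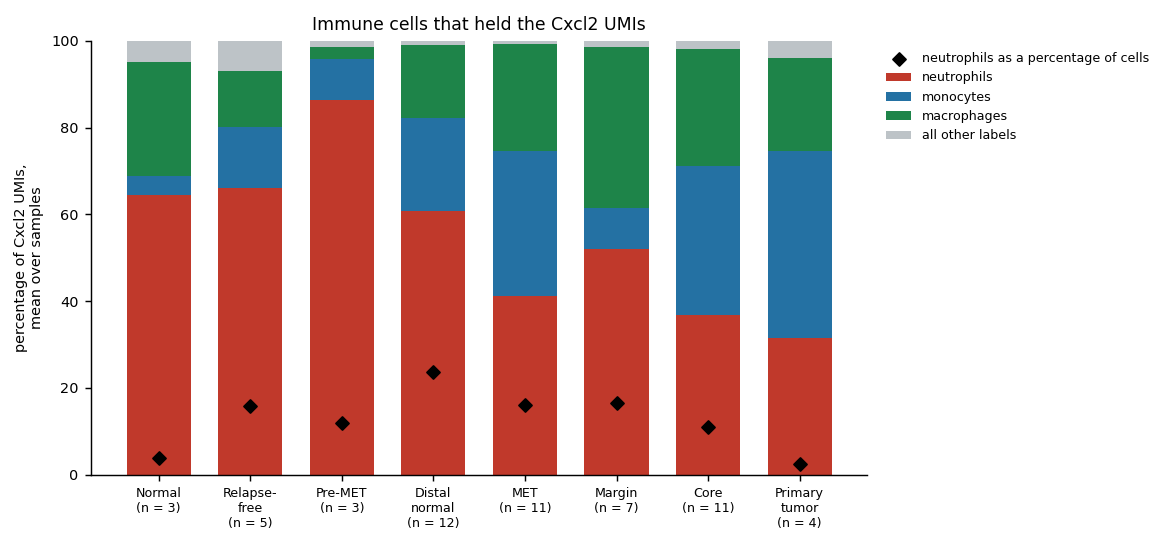
Percentage of the Cxcl2 UMIs of a sample held by each immune lineage (bars, mean over samples with 20 or more Cxcl2 UMIs, number in brackets), with neutrophils as a percentage of all immune cells as diamonds. Neutrophils hold 86.2% in Pre-MET lungs and 36.8% in the core, and their percentage of UMIs is above their percentage of cells in every tissue.

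The shares of the Cxcl2 transcripts held by each lineage are given by tissue as a description, without a test. Neutrophils held 86.2 ± 5.98% of the Cxcl2 UMIs in Pre-MET samples (n = 3) as 12% of cells, 64.4 ± 6.25% in Normal (n = 3) as 3.90% of cells, and 60.7 ± 35.3% in distal normal tissue (n = 12) as 23.6% of cells. In Relapse-free samples they held 66.0 ± 20.8% (n = 5) as 15.9% of cells. In the margin they held 52.1 ± 37.4% (n = 7) as 16.5% of cells, beside 37.1% in macrophages. In MET they held 41.1 ± 28.7% (n = 11) as 15.9% of cells, and in the core 36.8 ± 30.0% (n = 11) as 10.9% of cells, beside 34.4% in monocytes and 27.0% in macrophages. In primary tumors neutrophils were 2.55% of cells and held 31.5% of the UMIs, and monocytes held 43.0%. Samples varied widely, from 0 to 86.4% in the core, and core and margin samples, unlike most others, were gated on GFP, in most mice without CD45.

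Of 41 further genes of neutrophil traffic (8 ligands, 13 receptors, 9 adhesion molecules and 11 signal transducers), 28 had a mean of 50 CPM or more in neutrophils, among them the adhesion genes Selplg (1585 CPM) and Cd44 (1036), the chemokine receptor gene Ccr1 (930), the decoy receptor gene Il1r2 (1220), and the signal transducers Rac2 (1604) and Rgs2 (867). Csf3, which encodes the ligand of CSF3R, was at 0.995 CPM and Cxcl12, the ligand of CXCR4, at 0.270 CPM in neutrophils, and Cxcl5, Cxcl15, Csf2 and Ackr3 had no UMI in any neutrophil sum. Cxcr1, the paralog of Cxcr2, was at 49.3 CPM, and Cxcl1 at 30.6 CPM. None of the tested pathway genes was called in any neutrophil comparison, beside 1.06%, 0.0577%, 0%, 0.463% and 0% of all genes in the order that follows, with 12 tested in Pre-MET against Normal, 26 in Relapse-free against Normal, 21 in MET against distal normal tissue, 8 in core against margin and 14 in Primary against core. In MET against distal normal tissue their median change was -0.02, beside -0.0043 over all genes tested. In the order of these comparisons, 1, 2, 1, 2 and 2 of them had an unadjusted edgeR p below 0.05, beside 37 of 377, 146 of 1733, 26 of 715, 28 of 216 and 50 of 346 of all genes tested.

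In monocytes, 2 of 27 tested pathway genes rose from Normal to Pre-MET, among them Ccr1 by 2.82 (edgeR adjusted p = 0.0454), and 3 fell, namely Pecam1, an adhesion molecule of endothelium and leukocytes (-2.75, 0.0372), the TNF receptor gene Tnfrsf1b (-1.06, 0.00785) and Rgs2, a regulator of G protein signalling (-0.92, 0.0175), where 4.32% of all genes tested were called. Mon_Fn1 made up 23.8% of Normal and 69.6% of Pre-MET monocytes, and its part in these calls was not tested. Batch and group cannot be told apart in this comparison. In macrophages, 2 of 14 tested pathway genes were called between MET and distal normal tissue, beside 9.54% of all genes tested. Itgam, the integrin CD11b, rose by 2.12 (edgeR adjusted p = 0.0369), and the hyaluronan receptor Cd44 fell by 1.54 (0.00253). Mac_Cd9 made up 63.6% of distal and 7.65% of MET macrophages, and its part was not tested. Arrb2, an arrestin that turns off chemokine receptors, was 1.70 higher in primary tumor than in core macrophages (edgeR adjusted p = 0.0219, 1 of 20 tested, beside 4.53% of all genes). With batch as a covariate only 2 genes in all were called in this comparison. Organ, dissociation program, sort gate, photoactivation and time relative to resection cannot be told apart from tissue there.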

How the data were processed

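Per the labels and the study's methods, the authors sorted single cells into plates, sequenced 3′ ends with UMIs (bcl2fastq 2.15.0.4 and mm10 stand in the submitters' processing notes), mapped reads with HISAT, counted UMIs per gene and discarded multi-mapping reads and cells under 500 UMIs. The deposited values are raw UMI counts per gene and well, with the authors' cell labels, and 0 columns of samples were unused. Counts were summed per mouse, tissue and lineage or label (10 or more cells). Tests used edgeR 4.0.16 in R 4.3.3 (quasi-likelihood, TMM, filterByExpr), with DESeq2 1.42.0 and exact or 100000-resample permutation tests beside it, and were tested on simulated data. The labels give the mouse, so MET and distal samples, and core and margin samples, of one mouse are paired. Their deviations correlated at 0.321 on average in neutrophils and 0.253 in monocytes for MET and distal tissue. Named genes were the 5 genes, called genes of a 41-gene traffic list and the 3 genes nearest in pattern. One called gene of the list is not reported here. The genes and lists were chosen with earlier results of these data known. UMIs are counted once per transcript end, so gene length was not corrected. No 30-base stretch of the last 500 transcript bases is shared by Cxcl2, Cxcl3 and Cxcl1, or by Cxcr2 and Cxcr1. Confidence limits from counts of 0 (3 UMIs) cover counting error only. Doublets were not called.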

Additional observations from a re-analysis of the deposited data

Results flagged for a closer look

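Sums that stood far from the others of their group were looked for in 70 groups of 4 to 10 sums, of which 20 held one. For normally distributed values chance gives about 1 in 20 groups, a rate that was not worked out for groups of sparse counts mostly at 0. In neutrophils these were Cxcl3 in MET of mouse 32 (405 CPM, 56 UMIs, next 161), Cxcl3 in the margin of mouse 36 (407 CPM, 10 UMIs, next 73.7), Cxcr4 in MET of mouse 36 (546 CPM, 20 UMIs) and Cxcr4 in the core of mouse 28 (330 CPM, 5 UMIs). In monocytes they were Cxcl2 in the margin of mouse 33 (1026 CPM, 14 UMIs, next 254), Cxcl2 in the relapse-free lung of mouse 35 (651 CPM, 273 UMIs, next 168), Csf3r in the margin of mouse 36 (174 CPM), Csf3r in the relapse-free lung of mouse 29 (146 CPM, 4 UMIs) and Cxcr2 in the primary tumor of mouse 9 (1.15 CPM, 1 UMI).

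In macrophages the ligand sums apart were Cxcl2 in distal normal tissue of mouse 33 (1568 CPM, 20 UMIs, next 529), Cxcl3 in the core of mouse 30 (222 CPM, 25 UMIs, next 116) and Cxcl3 in the margin of mouse 17 (179 CPM, 19 UMIs, next 12.1). Receptor sums apart were Cxcr2 in distal normal tissue of mouse 17 (56.7 CPM, 2 UMIs), in the core of mouse 28 (104 CPM, 5 UMIs), in the margin of mouse 17 (9.44 CPM, 1 UMI), in MET of mouse 30 (23.1 CPM, 2 UMIs) and in the relapse-free lung of mouse 11 (42.0 CPM, 5 UMIs), and Csf3r in the core of mouse 36 (99.6 CPM, 18 UMIs), in MET of mouse 23 (123 CPM, 8 UMIs) and in the relapse-free lung of mouse 29 (116 CPM, 3 UMIs).

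Wells left out of the comparisons also held these transcripts. The 336 wells labelled Erythrocytes had Cxcl2 at 1182 CPM, Csf3r at 593, Cxcr2 at 471, Cxcr4 at 62.3 and Cxcl3 at 15.0, above the 7.48 CPM that 3 UMIs are worth there. The wells labelled Outlier had Cxcl2 at 256 CPM, Cxcl3 at 44.2 and Csf3r at 32.4, above 8.84 CPM.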

How the results depend on the processing

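Among labels with 3 or more sums, the highest label was a neutrophil label for 5 of 5 genes with 5 or more cells in a sum and on pooled UMIs. With 20 or more cells it was so for 4, since Neut_PMN-MDSC then had 2 sums and Mac_Isg20 (129 CPM) came before Neut_Ptgs2 (114 CPM) in Cxcl3. Under these settings 82 of 82 recomputed label levels moved by no more than 1 SD over sums. This limit is wide for sparse genes, whose SD can exceed the mean. Cxcl3 in Mon_Thbs1 (48.5 CPM, SD 84.1) was 23.6 CPM on pooled UMIs. On pooled UMIs Neut_Ifit3 (47.0 CPM) also came before Neut_Lcn2 (39.6 CPM) in Cxcl3. Without thinning the percentage of neutrophils with a UMI was higher for each gene, and for Cxcr2 (49.6%) by more than 1 SD over samples. Of the log2 fold changes of the 5 genes recomputed under settings other than leaving out 1 mouse from a group, 169 kept their direction and side of the threshold, 27 changed sign, 10 passed the threshold only under the alternative and 2 lost it. The cause was not tested in any case. Depth limits Cxcl3 and Cxcr4 in neutrophils most, since many sums held 10 or fewer UMIs of them, and sums of 1 lineage from few cells limit the comparisons with Normal and Primary.

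Counts of called genes differed by over 1.5 times from the main counts as follows. In neutrophils, Pre-MET against Normal (4) gave 10 with no filter on low counts, 0 with 20 or more cells in a sum, and 0 to 7 when 1 mouse was left out. Relapse-free against Normal (1) gave 0 with DESeq2 or RLE size factors, 2 with no filter, 2 with 20 or more cells, 0 without mice 6 and 7 (an alternative chosen after seeing the data, under which Cxcr2 was 0.017, of opposite sign), and 0 to 5 with 1 mouse left out. MET against distal normal tissue (0) gave 5 with no filter. Core against margin (1) gave 8 with DESeq2, 3 with no filter, 2 with 20 or more cells, 2 with cells of 1000 or more UMIs, 0 with batch as covariate, 3 without mouse 17 in either tissue, and 2 to 4 with 1 margin mouse left out. Primary against core (0) gave 12 with DESeq2, 6 with no filter, and 1 and 11 with 1 tumor left out.

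In monocytes, Pre-MET against Normal (214) gave 127 with cells of 1000 or more UMIs and 87 to 138 with 1 mouse left out. MET against distal normal tissue (31) gave 51 with DESeq2, 322 with no filter, 15 with cells of 1000 or more UMIs and 82 with batch. Core against margin (0) gave 12 with DESeq2, 2 with RLE, 91 with no filter, 2 with 20 or more cells and 2 with cells of 1000 or more UMIs. Primary against core (27) gave 80 with DESeq2, 320 with no filter, 43 with 20 or more cells, 0 with batch, and 0 to 15 with 1 tumor left out. In macrophages, MET against distal normal tissue (123) gave 461 with no filter and 59 with cells of 1000 or more UMIs, core against margin (0) gave 26 with DESeq2, 17 with no filter and 0 to 1 with 1 margin mouse left out, and Primary against core (98) gave 171 with DESeq2, 258 with no filter, 62 with cells of 1000 or more UMIs, 2 with batch, and 45 to 93 with 1 tumor left out.

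With the mouse as a replicate block, which pairs tissues of one mouse, 2 genes were called in Neut_Ptgs2 between MET and distal normal tissue (0 without the block), 79 in monocytes between MET and distal normal tissue, and 58 in monocytes between core and margin. Under the block Cxcl2 in monocytes changed by 1.27 and 1.51 in these 2 comparisons and passed, and Cxcr2 in neutrophils took the other sign (0.081 in MET, 0.18 in core), as did Csf3r in Neut_Ptgs2 (-0.068). It changed no other call on the 5 genes.

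Among the 5 genes in neutrophils, the sign changed with no filter for Cxcr2 in Pre-MET (0.31), Cxcr2 (0.40) and Cxcr4 (0.37) in Relapse-free, Cxcl3 in Primary against core (-0.45), Csf3r in Neut_Ptgs2 (-0.15) and Csf3r in Neut_Ifit3 (-0.066). With 20 or more cells it changed for Csf3r (-0.045) and Cxcr2 (0.043) in Pre-MET, Cxcr2 (0.14) and Cxcr4 (0.63) in Relapse-free, and Csf3r in Neut_Ptgs2 (-0.22). With cells of 1000 or more UMIs it changed for Cxcr2 in MET (0.041), Csf3r (0.36) and Cxcr2 (0.015) in core, Csf3r in Neut_Ptgs2 (-0.72) and Cxcr2 in Neut_Lcn2 (0.037). With batch it changed for Cxcl2 in MET (-0.078), Cxcr2 in core (0.072) and Csf3r in Neut_Ptgs2 (-0.071), which was also -0.025 with DESeq2 and -0.020 with RLE. In macrophages Cxcl2 in core against margin was -0.015 with 20 or more cells and -0.28 with batch.

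Leaving out 1 mouse at a time gave ranges that crossed 0 for Csf3r (-0.045 to 0.96) and Cxcr2 (-0.63 to 0.11) in Pre-MET, Cxcr2 (-0.36 to 0.24) and Cxcr4 (-0.10 to 0.63) in Relapse-free, Cxcr2 in core (-0.23 to 0.018), Csf3r (-0.19 to 1.21), Cxcl2 (-1.38 to 0.089), Cxcl3 (-3.07 to 0.94) and Cxcr2 (-1.31 to 0.17) in Primary against core, Cxcr2 in Neut_Ifit3 (-0.49 to 0.14), and Cxcl2 in Pre-MET monocytes (-0.80 to 0.37). Cxcr4 in Pre-MET monocytes ranged from -1.62 to -1.04.

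Past the threshold only under an alternative were Cxcl2 in MET monocytes (1.38 with no filter, 1.43 with batch), Cxcl2 in Primary against core monocytes (-2.24 with DESeq2, -2.27 with RLE, -1.91 with no filter, -2.49 with 20 or more cells, -2.51 with cells of 1000 or more UMIs) and Cxcl2 in MET macrophages (1.59 with no filter). Calls lost were Cxcr4 in Pre-MET monocytes with cells of 1000 or more UMIs (-1.21) and Cxcl2 in Primary against core macrophages with batch (-3.61). For the lineage differences, a pseudocount of 50 CPM gave 1.09 for Cxcl3 in neutrophils minus monocytes (exact sign-flip permutation p = 0.03125, the smallest possible) and 0.13 for Cxcr4, of opposite sign, and a pseudocount of 1 CPM gave -0.31 for Csf3r in neutrophils minus macrophages, of opposite sign. With no filter edgeR also called Cxcl3, which the main filter kept out, in macrophages between MET and distal normal tissue (5.33) and Primary and core (-6.59), and in monocytes between core and margin (5.50) and Primary and core (-4.45), values that depend on the prior count where a group is at 0.

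Some settings gave no value. Batch could not be fitted where Normal was compared, nor for neutrophils of Primary against core. Sums of 20 or more cells were too few for neutrophils of Primary against core, Neut_Ifit3 and macrophages of MET against distal normal tissue. Cells of 1000 or more UMIs left too few sums for neutrophils in the Pre-MET, Relapse-free and Primary comparisons and for Neut_Ifit3. The block could not be fitted for Neut_Ifit3 and for macrophages of core against margin.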
